A study of Mus musculus with 4 samples.

Results

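Endoplasmic reticulum (ER) stress genes were followed through the cells of the injured mouse intestine. The group holds 10 genes chosen by name, Hspa5, Hsp90b1, Pdia4, Sdf2l1, Creld2, Manf, Serp1, Syvn1, Xbp1 and Ddit3, out of 32286 features that were counted. Creld2, Serp1 and Syvn1 were picked because they had been higher in stromal cells of mutant mice, so the stromal genotype values are given only as a description. Genotype values in other classes come from the same mice, so counts of members there are not independent of that choice. The group was proposed with its levels in plasma cells in view, and those levels are likewise described without a test.

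Cells were dissociated from the distal jejunum of 4 adult male mice, 18.5 h after intestinal ischemia/reperfusion (I/R), in which the superior mesenteric artery was clamped and then released. The 2 Control mice were Foxc1 fl/fl;Foxc2 fl/fl without Cre, and the 2 EC-Foxc-DKO mice were Cdh5-CreERT2;Foxc1 fl/fl;Foxc2 fl/fl, in which tamoxifen induces deletion of Foxc1 and Foxc2 in endothelial cells. Thus all 4 mice carried the floxed alleles, received tamoxifen and underwent I/R, and uninjured intestine was not analysed here. Each library was 1 mouse, so that a mouse and its library cannot be told apart.

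The libraries held 3623 to 7347 barcodes and 15557181 to 72046346 unique molecular identifiers (UMIs), each UMI standing for 1 captured RNA molecule. A limit of 10% mitochondrial UMIs kept 1446 and 348 cells of Control 1 and 2. It kept 2742 and 1079 cells of EC-Foxc-DKO 1 and 2. The kept cells are 24.8% of all barcodes, with a median of 4254.5 to 19871 UMIs per cell by mouse. The libraries were unequal in quality. The kept share was 21.8% and 9.61% in Control 1 and 2 and 37.3% and 21.2% in EC-Foxc-DKO 1 and 2. Before the limit, the median barcode of Control 1 and 2 had 24.9% and 54.004% mitochondrial UMIs. That of EC-Foxc-DKO 1 and 2 had 14.98% and 25.8%. The part of this gap in the differences between mice was not tested. In all, 51 barcodes occurred in 2 libraries, and 4 kept cells shared a barcode with another kept cell. Clustering gave 23 cell classes that were named from markers, and each name stands for cells like that type by those markers. Plasma cells (47) detected 8 of 8 markers, stromal cells (75) 8 of 8, goblet cells (92) 7 of 7 and Paneth cells (35) 7 of 7. Foxc1 gave 1 and 5 UMIs in the blood endothelial cells (BECs) of the Control mice and 1 and 0 in those of the EC-Foxc-DKO mice, and Foxc2 gave 0 in all 4, so the deletion could not be checked at this depth.

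The ER is where secreted and membrane proteins are folded. When unfolded protein accumulates there, the sensors IRE1, PERK and ATF6 start the unfolded protein response, which raises chaperones, translocation and ER-associated degradation (ERAD), and, through PERK, the transcription factor CHOP. Cells that secrete large amounts of protein, such as plasma, Paneth and goblet cells, are known for a large ER, and the response is also known to follow ischemia.

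By role, the members fall into 3 sets. The first holds chaperones and folding factors: Hspa5 (chr2:34771970-34777547) encodes BiP, the main ER chaperone of the Hsp70 family, Hsp90b1 (chr10:86690209-86705509) encodes GRP94, the ER chaperone of the Hsp90 family, and Pdia4 (chr6:47796141-47813430) encodes a protein disulfide isomerase. Sdf2l1 (chr16:17130138-17132383) encodes a partner of BiP, Creld2 (chr15:88819646-88826683) an ER-resident factor that rises in ER stress, and Manf (chr9:106838312-106891979) a secreted protein that is held in the ER by BiP. The second set is Serp1 (chr3:58519817-58525892), whose product stabilizes membrane proteins at the translocation pore, and Syvn1 (chr19:6046576-6053712), which encodes the ERAD ubiquitin ligase HRD1. The third is a pair of transcription factor genes, Xbp1 (chr11:5520659-5525893), whose mRNA IRE1 splices, and Ddit3 (chr10:127290774-127296288), which encodes CHOP. Positions are those of the GENCODE annotation of mm10. Libraries of 3′ ends cannot separate spliced from unspliced Xbp1, and a second Ddit3 feature, nested in the first on the same strand, held 0 UMIs.

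Promoter sequence was read for the letters of the ER stress element (ERSE), CCAAT and CCACG with 9 bases of any kind between them, the site through which ATF6 is known to raise chaperone genes. RefSeq windows of build GRCm38.p6, from 250 bases before to 50 after each start, were searched on both strands, and 9 of the 10 members, all but Manf, had a window. The letters occurred in 4 of these 9 windows and in 39 of all 32851 windows (0.119%). The 5 sites of these 4 members, Hspa5, Hsp90b1, Creld2 and Syvn1, are shown so that their letters can be compared, with the fixed letters in capitals, 5′ to 3′ in the direction of the motif.
Hspa5, 65 bases before the RefSeq start, chr2:34772025-34772043, on the gene's strand: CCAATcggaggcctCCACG
Hsp90b1, 212 bases before, chr10:86705638-86705656, on the gene's strand: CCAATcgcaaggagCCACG
Hsp90b1, 107 bases before, chr10:86705533-86705551, on the opposite strand: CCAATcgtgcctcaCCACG
Creld2, 126 bases before, chr15:88819520-88819538, on the opposite strand: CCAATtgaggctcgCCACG
Syvn1, 44 bases before, chr19:6046532-6046550, on the gene's strand: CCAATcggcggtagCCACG
All 5 lie before the RefSeq start, and the Hspa5 site is also inside the 5′ end of the GENCODE gene. The ERSE-II letters (ATTGG and CCACG with 1 base between them), the UPRE letters TGACGTGG and the CARE letters TGATGNAA occurred in 0 of the 9 windows, against 0.0365%, 0.676% and 3.97% of all windows. A match describes letters only, and binding was not measured. For Creld2 and Syvn1, the 2 members with such letters among those picked for stromal cells, the 250 bases before the start are given on the gene's strand, again with the ERSE in capitals (both genes lie on the plus strand).
Creld2, chr15:88819396-88819645: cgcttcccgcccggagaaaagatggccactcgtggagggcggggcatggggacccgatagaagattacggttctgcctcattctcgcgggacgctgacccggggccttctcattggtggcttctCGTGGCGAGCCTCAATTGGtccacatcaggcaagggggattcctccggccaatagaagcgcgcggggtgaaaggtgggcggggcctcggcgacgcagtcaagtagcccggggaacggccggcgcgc
Syvn1, chr19:6046326-6046575: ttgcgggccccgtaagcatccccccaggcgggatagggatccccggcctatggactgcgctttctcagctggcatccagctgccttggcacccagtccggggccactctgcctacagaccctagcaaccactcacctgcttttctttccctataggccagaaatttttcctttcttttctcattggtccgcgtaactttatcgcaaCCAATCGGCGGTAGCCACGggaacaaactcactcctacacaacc

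Levels are UMIs per 1000000 UMIs (CPM) of the same class and mouse, as mean ± SD over the mice with at least 5 cells, and no level is compared between genes. Clusters were built from these cells and from variable genes that include the members, so that a class against the rest is no test. Plasma cells had the highest mean of the 23 classes for 6 of the 10 members (Hsp90b1, Pdia4, Sdf2l1, Creld2, Serp1 and Xbp1) and were among the 3 highest for 9. Of all 3064 genes with a mean of at least 50 CPM over classes, 39 (1.27%) were highest in plasma cells, and the median gene was at 0.511 times its median class there. The member that stood apart was Ddit3, which was lowest in plasma cells. Clustering again without the members and the other ER genes left 9 of 10 among the 3 highest.

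**Figure D1:**
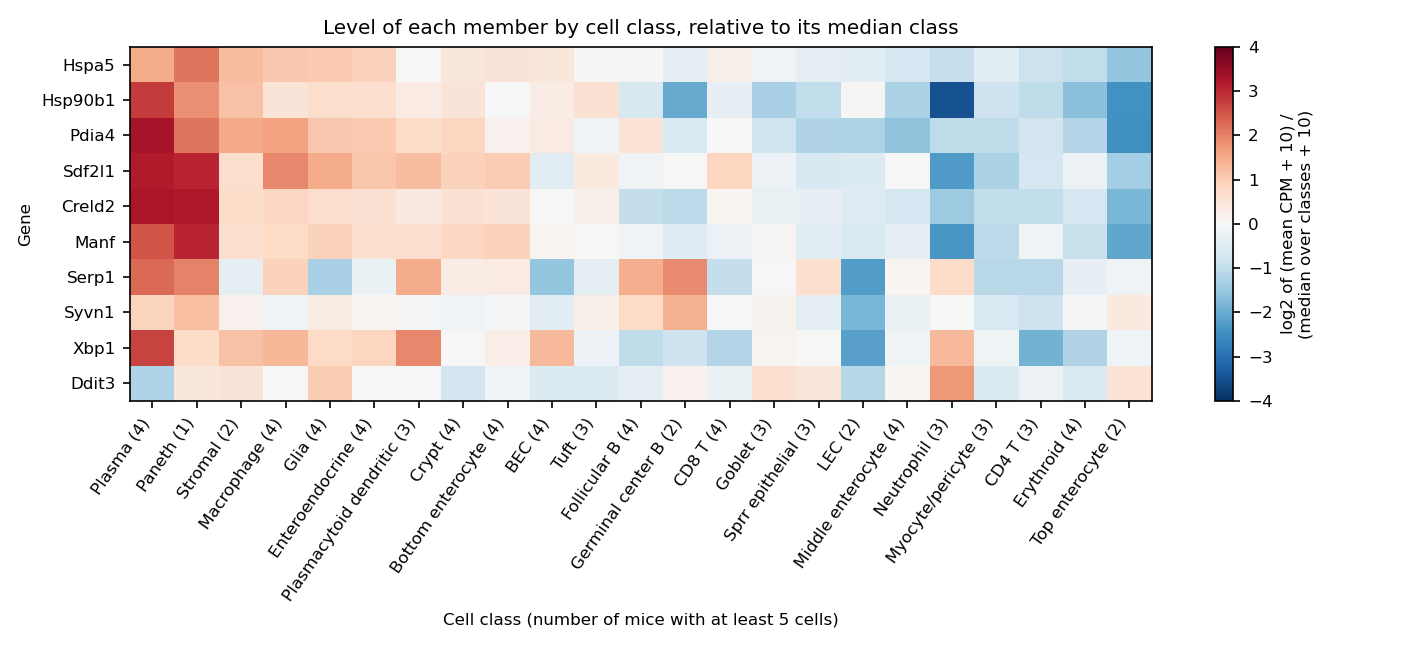
Each column is a cell class, with the number of mice that had at least 5 cells, ordered by the summed level of the members, and each row is a gene; color gives the log2 of the mean CPM + 10 over the gene's median class + 10. Plasma and Paneth cells are red for the chaperones, whereas Ddit3 is highest in neutrophils and blue in plasma cells.

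Among the chaperones, Pdia4 was at 398.5 and 526.7 CPM in plasma cells of Control 1 and 2 and at 618.5 and 837.6 CPM in those of EC-Foxc-DKO 1 and 2. Its mean of 595 ± 185 CPM (SD, n = 4 mice) was 11.7 times the median class (51.0 CPM). All 4 mice lay above every other class mean, the next being Paneth cells at 260 CPM in 1 mouse and macrophages at 177 ± 67.8 CPM (n = 4). Of the 6 members that were highest in plasma cells, Pdia4 was the only 1 whose range over mice was apart from the next class.

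Hsp90b1 was at 1999.7 and 4870.7 CPM in the Control plasma cells and at 4530.5 and 6635.1 CPM in those of EC-Foxc-DKO mice, a mean of 4509 ± 1910 CPM against a median class of 646 CPM. The lowest plasma value, that of Control 1, was below the 1 Paneth value (2310 CPM) and above stromal cells, the third class (1471 ± 161 CPM, n = 2). Neutrophils were lowest at 49.1 ± 45.1 CPM (n = 3).

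Sdf2l1 reached 152.2, 520.8, 476.6 and 542.0 CPM in plasma cells of Control 1, Control 2, EC-Foxc-DKO 1 and EC-Foxc-DKO 2, or 423 ± 183 CPM, with Paneth cells at 384 CPM (n = 1) and macrophages at 171 ± 39.3 CPM. Creld2 was at 239.1, 473.5, 701.5 and 837.6 CPM in the same order, or 563 ± 263 CPM, with Paneth cells at 538 CPM and no other class above 94.8 ± 57.2 CPM (macrophages). For both genes the plasma range held the Paneth value, and the plasma mean was 11.2 and 11.4 times the median class. In neutrophils Sdf2l1 had 0 UMIs in 3 mice, which allowed up to 24.2, 58.7 and 181 CPM.

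By the mean over mice, Manf and Hspa5 were highest in Paneth cells, at 1685 and 2217 CPM in the 27 cells of EC-Foxc-DKO 2. Plasma cells of that mouse were at 1691.6 CPM for Manf, so the ranking of Manf did not hold within it. They were at 1478.1 CPM for Hspa5. EC-Foxc-DKO 2 also had the highest level in 66 of 110 pairs of a member and a class, given below. Counting error left the Paneth levels at 1590 to 1783 and 2109 to 2329 CPM (exact Poisson interval, 95%), which says nothing of other mice. The other mice had 1 to 4 Paneth cells each, with 1470 to 2163 CPM of Hspa5. In plasma cells Manf was at 528.9, 1059.4, 1387.0 and 1691.6 CPM (1167 ± 497 CPM) and Hspa5 at 586.9, 1834.6, 1684.2 and 1478.1 CPM (1396 ± 559 CPM). Hspa5 was the flattest chaperone across classes: stromal cells (1165 ± 712 CPM, n = 2), macrophages (1050 ± 222 CPM) and glia (1028 ± 387 CPM) overlapped with plasma cells, and top enterocytes were lowest at 161 ± 18.5 CPM (n = 2).

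Serp1 was highest in plasma and Paneth cells, followed by B cells. It was at 924 ± 258 CPM in plasma cells (710.0, 787.1, 907.7 and 1292.0 CPM by mouse), 757 CPM in Paneth cells, 716 ± 398 CPM in germinal center B cells (n = 2) and 527 ± 54.1 CPM in follicular B cells, and 530 ± 121 CPM in plasmacytoid dendritic cells (n = 3). These neighbours overlapped, whereas follicular B cells were apart from macrophages (359 ± 36.3 CPM). Endothelial cells were lowest, with 56.9 ± 15.3 CPM in BECs and 30.9 ± 21.2 CPM in lymphatic endothelial cells (LECs, n = 2).

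Syvn1 was a low gene with a like order. Germinal center B cells had 85.4 ± 16.8 CPM (n = 2), Paneth cells 72.0 CPM, plasma cells 56.1 ± 25.7 CPM and follicular B cells 51.3 ± 22.7 CPM, against a median class of 25.5 CPM. By mouse, plasma cells were at 21.7, 65.1, 83.0 and 54.7 CPM. In LECs it had 0 UMIs in both mice, which allowed up to 138 and 47.8 CPM.

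Xbp1, the factor known to drive plasma cell secretion, was at 752 ± 313 CPM in plasma cells, 440 ± 193 CPM in plasmacytoid dendritic cells, 283 ± 124 CPM in macrophages, 278 ± 93.7 CPM in neutrophils and 277 ± 104 CPM in BECs. The plasma values were 1217.2 CPM in Control 1 and 556.3, 658.7 and 574.8 CPM in Control 2, EC-Foxc-DKO 1 and EC-Foxc-DKO 2, so 1 mouse with 5 plasma cells stood above 3 that lay close together. Unlike the chaperones, Xbp1 was only 188 CPM in Paneth cells.

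Ddit3 ran in another order from the other members. Neutrophils had 121 ± 16.1 CPM (range 104.8 to 137.0 CPM, n = 3), glia 70.5 ± 48.1 CPM, goblet cells 51.0 ± 26.9 CPM (n = 3), top enterocytes 47.1 ± 2.48 CPM and stromal cells 46.2 ± 10.7 CPM. In plasma cells it was at 0, 5.9, 10.7 and 10.9 CPM, and the 0 UMIs of Control 1 allowed up to 21.7 CPM. Plasma cells thus had the highest level of 4 of the 6 chaperones and folding factors beside the lowest Ddit3 mean, although low classes such as LECs (7.96 ± 11.3 CPM) overlapped with them.

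The levels in plasma cells are shares of a total that immunoglobulin genes take up unequally: 70.2% and 64.6% of plasma UMIs in Control 1 and 2 and 54.3% and 38.9% in EC-Foxc-DKO 1 and 2. With immunoglobulin and mitochondrial genes left out of the total, Creld2 was at 834.7, 1432.5, 1605.0 and 1494.0 CPM and Hspa5 at 2048.9, 5550.9, 3853.3 and 2636.4 CPM in the same order of mice. The plasma mean was then highest for 9 members, and the ratios of plasma to the median class were 27.4 for Pdia4, 25.6 for Creld2, 25.4 for Sdf2l1, 18.4 for Xbp1 and 0.503 for Ddit3. With this total the order of the mice changed for Creld2 and stayed for Hspa5, so differences between mice in plasma cells can depend on it.

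**Figure D2:**
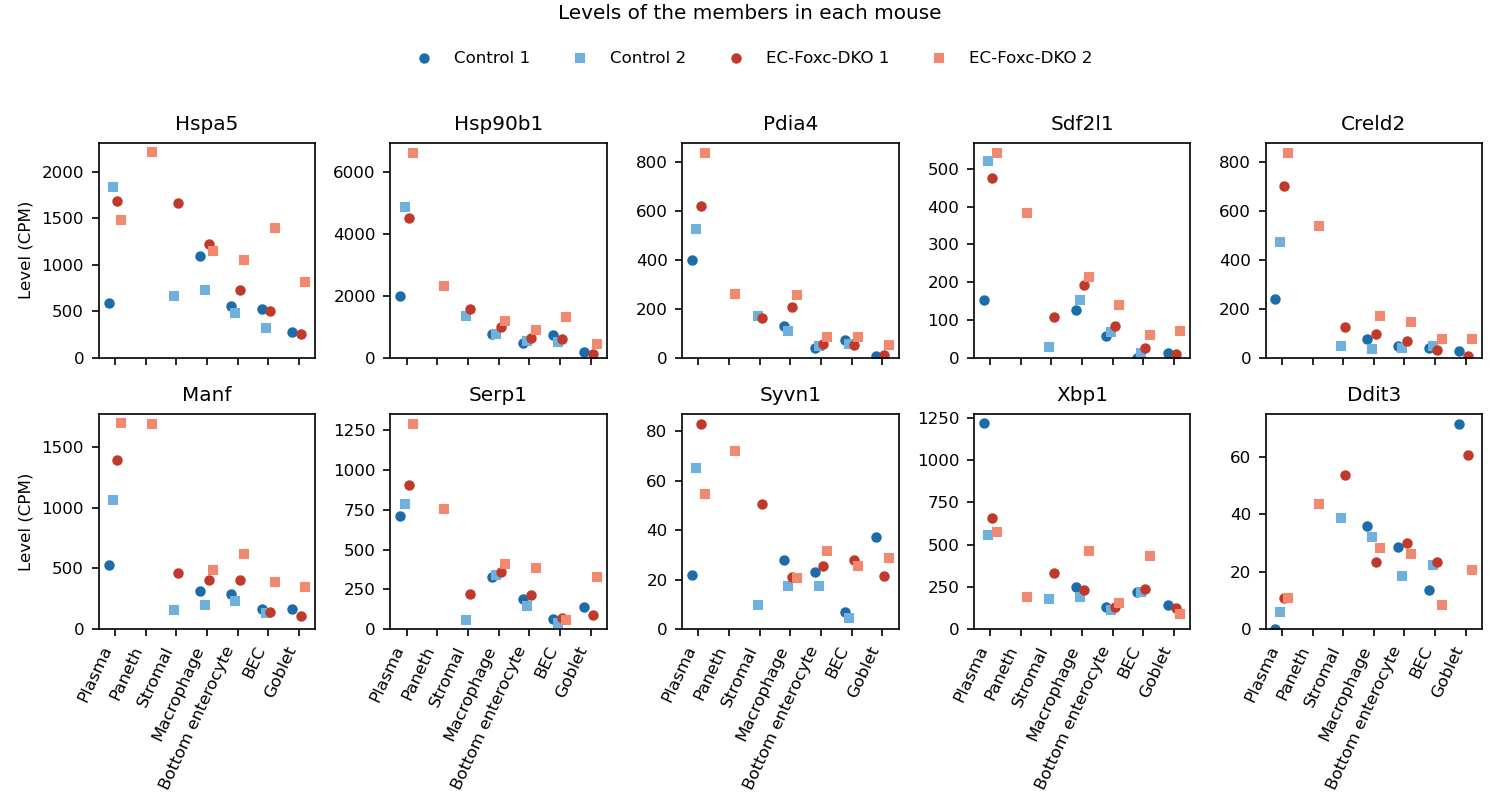
Each panel is a gene and each point is the CPM of 1 mouse in 1 cell class, for mice with at least 5 cells of that class; blue marks Control and red EC-Foxc-DKO, circles replicate 1 and squares replicate 2. In plasma cells Creld2 ran from 239.1 CPM in Control 1 to 837.6 CPM in EC-Foxc-DKO 2, and the scale differs between panels.

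Within plasma cells the members were present in most cells. Creld2 had a UMI in 45 of 47 plasma cells (95.7%), with a median of 4.15 UMIs per 10000 and quartiles of 2.44 and 7.75, against 30 of 326 top enterocytes (9.20%), where its mean was lowest. Their median depths were 17806 and 12583.5 UMIs per cell, and with each cell thinned to 1000 UMIs the expected shares were 40.3% and 0.57%. Hspa5 had a UMI in all 47 plasma cells and in 74 of 75 stromal cells. Ddit3 had one in 6 plasma cells (12.8%, or 0.79% when thinned), compared with 5.87% of goblet cells, 5.73% of stromal cells and 5.23% of top enterocytes when thinned. Cells of 1 mouse are not replicates, and these shares carry no test.

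Goblet cells, although secretory, were at 0.396 to 1.14 times the median class for all members but Ddit3. Their means were 449 ± 323 CPM for Hspa5, 256 ± 159 CPM for Hsp90b1, 30.5 ± 34.1 CPM for Sdf2l1, 38.4 ± 35.6 CPM for Creld2, 205 ± 124 CPM for Manf and 185 ± 128 CPM for Serp1 (n = 3, Control 2 having 3 goblet cells). One mouse carried most of each: Creld2 was at 28.0 CPM in Control 1, 9.13 CPM in EC-Foxc-DKO 1 and 78.0 CPM in EC-Foxc-DKO 2, and Pdia4 at 9.33, 12.2 and 53.4 CPM. In the same cells the summed level of the Paneth list was 668 CPM (3 of 7 markers detected), 2908 CPM (6 of 7) and 41667 CPM (7 of 7), and that of the bottom enterocyte list 9295, 4020 and 40200 CPM (8 of 8 in each). Their part in the goblet values was not tested. Ddit3 was lowest in EC-Foxc-DKO 2, at 71.5, 60.9 and 20.5 CPM in the same order of mice.

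In stromal cells, fibroblast-like cells marked by Dcn and collagen genes, only 1 mouse of each genotype had at least 5 cells, Control 2 (30 cells) and EC-Foxc-DKO 1 (41 cells), and the members were in part chosen by this contrast. The 3 picked genes were at 48.3 and 128 CPM for Creld2 (10 and 38 UMIs), 58.0 and 219 CPM for Serp1 (12 and 65 UMIs) and 9.66 and 50.5 CPM for Syvn1 (2 and 15 UMIs). Counting error alone gave 23.2 to 88.8 against 90.5 to 176 CPM for Creld2 (exact Poisson intervals, 95%). For Serp1 it gave 29.9 to 101 against 169 to 279 CPM, and for Syvn1 1.17 to 34.9 against 28.3 to 83.2 CPM. These intervals leave out the spread between mice and between cells. The 3 genes were picked by this contrast, so nothing about genotype is read from the intervals. On the log2(CPM + 10) scale the 3 genes differed by 1.24, 1.75 and 1.62.

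Of the others, Hspa5 went from 662 to 1669 CPM (log2 difference 1.32), Manf from 159 to 464 CPM (1.49) and Sdf2l1 from 29.0 to 108 CPM (1.59). Xbp1 (0.85), Ddit3 (0.39), Hsp90b1 (0.22) and Pdia4 (-0.06) differed by less than 2-fold. Thus 6 of the 10 members were past 2-fold upward and 0 downward, against 9.59% and 4.36% of 6746 genes, and nothing is read from this since the contrast chose members. Control 1 had 3 stromal cells, and the 1 stromal cell of EC-Foxc-DKO 2 held 68 UMIs of Hspa5 among 7442.

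Several other measures differed between the same 2 stromal samples. Marker lists of 18 of the 24 other classes summed to a higher level in EC-Foxc-DKO 1, among them top enterocytes (333 against 9131 CPM, 7 of 7 markers in both), goblet cells (77.3 against 350 CPM) and follicular B cells (9.66 against 303 CPM). The plasma list was at 53.1 and 97.6 CPM, with Tnfrsf17, Prdm1 and Irf4 among its markers at 0 in both. Immunoglobulin genes took up 0.0029% of stromal UMIs in Control 2 and 0.0538% in EC-Foxc-DKO 1. The median cell had 6444.5 UMIs and 7.21% mitochondrial UMIs in Control 2 and 5724 UMIs and 4.08% in EC-Foxc-DKO 1. Over all classes, the limit of 10% mitochondrial UMIs kept 9.61% of barcodes in Control 2 and 37.3% in EC-Foxc-DKO 1. Their part in the stromal values was not tested.

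Across the 23 classes, the profile of the members varied in how alike they were. The 45 pairs had a median Pearson r of 0.44 (range -0.44 to 0.94) on the log2(CPM + 10) scale, highest for Creld2 and Manf. Classes share libraries and depth, so this is a description. The genes named next were sought only among those with a mean of at least 50 CPM over classes. Syvn1 and Ddit3 were below this limit, and the r of Syvn1 with Serp1 was 0.75. The genes most like the mean profile of the members were Dnajb11, an ER co-chaperone (r = 0.90), Clptm1l (0.88), Ssr4, a subunit of the translocon-associated complex (0.85), Tmed2 (0.84), Ppib (0.84), Ssr2 (0.83), Selenos (0.82), Ostc (0.82), H13 (0.82) and Txndc5 (0.82). Gene by gene, the nearest were Pdia4 for Hspa5 (0.92), Spcs1 for Hsp90b1 (0.94), Pdia6 for Pdia4 (0.93), Clptm1l for Sdf2l1 (0.94), Manf for Creld2 (0.94), Dnajb11 for Manf (0.95), Herpud1 for Syvn1 (0.75), Pafah1b3 for Serp1 (0.69), Tmed10 for Xbp1 (0.69) and Gsn for Ddit3 (0.69).

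The wider pathway was taken from a list of 75 other ER genes in 5 roles. Of 14 ERAD genes, 6 were highest in plasma and 4 in Paneth cells, and of 20 genes of translocation and glycosylation, 6 and 11. Of 17 chaperones and folding genes, 4 were highest in plasma and 7 in Paneth cells. Of the 3064 genes above, 1.27% were highest in plasma cells and 5.06% in Paneth cells, whose level rests on EC-Foxc-DKO 2 alone. The sensors and transcription factors (12 genes) and the targets of PERK, ATF4 and CHOP (12 genes) were highest in plasma cells in 0 and 1 case and in Paneth cells in 3 and 2.

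By the ratio to the median class (CPM + 1), the leading genes of these roles were the following. Derl3, an ERAD channel subunit, was at 394 CPM in plasma cells (ratio 220), and Edem2 at 324 CPM (10.7). The disulfide isomerase Txndc5 was at 1256 CPM in plasma cells (28.3) and the peptidyl-prolyl isomerase Fkbp11 at 299 CPM (63.6), and of these Fkbp11 was higher still in Paneth cells (448 CPM). Among the translocation genes the signal peptidase subunit Sec11c was at 1741 CPM (15.9) and Ssr4 at 1744 CPM (7.18) in plasma cells. Of the sensors, Ern2, the epithelial form of IRE1, was at 57.9 CPM in goblet cells (58.9) and 124 CPM in Paneth cells. The ER-bound factor Creb3l1 was at 64.1 CPM in goblet cells (19.5) and 477 CPM in Paneth cells. Among stress targets Nupr1 was at 291 CPM in stromal cells (185) and 297 CPM in Paneth cells, and Chac1 at 12.3 CPM in plasma cells (13.3).

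Next, the genotypes were compared within cell classes with edgeR's quasi-likelihood test on UMIs summed per mouse, in 8 classes with at least 10 cells in every mouse and in plasma and goblet cells. The goblet fit set 1 Control mouse against 2 EC-Foxc-DKO mice, because Control 2 had 3 goblet cells, and assumed that the lone mouse varies like the other group. At an adjusted p under 0.05, 0 members passed in each of the 10 classes, against 0.847% of genes in plasma cells and 0% of genes in the other 9. DESeq2 likewise called 0 members in each. At an unadjusted p under 0.05, 7 members passed in bottom enterocytes, 2 in macrophages, 1 each in BECs, erythroid cells and plasma cells and 0 in crypt cells, CD8 T cells, follicular B cells, glia and goblet cells. With 2 mice against 2, as in the other 9 classes, an exact permutation test of 1 gene cannot go below 0.333. Differences below are log2, EC-Foxc-DKO minus Control, with the standard error (SE) of the fit, overlap between mice was judged on the TMM-scaled levels of the fit, and the levels printed are CPM.

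Bottom enterocytes, absorptive cells marked by Reg3b and Reg3g, had the most uniform difference. All 10 members tested were higher in EC-Foxc-DKO, by 0.18 to 1.35 with a median of 0.77, while the median over all 9621 genes was 0.01. For 9 members both EC-Foxc-DKO mice lay above both Control mice, against 17.3% of genes, and the 7 at an unadjusted p under 0.05 compare with 2.95% of genes. Creld2, Serp1 and Syvn1 are among the 9 and were picked for a rise in stromal cells of the same libraries. These counts are thus not independent of that choice. Creld2 was at 46.4 and 38.5 CPM in Control and 68.9 and 144.8 CPM in EC-Foxc-DKO, a difference of 1.35 (SE 0.39), and Manf at 287.1 and 232.0 against 403.1 and 616.6 CPM, a difference of 1.01 (SE 0.29). In each case EC-Foxc-DKO 2 was highest and EC-Foxc-DKO 1 nearer to Control. The differences were 0.88 (SE 0.31) for Sdf2l1, 0.87 (SE 0.33) for Serp1, 0.82 (SE 0.28) for Hspa5, 0.72 (SE 0.30) for Pdia4 and 0.64 (SE 0.26) for Hsp90b1. For these 7 genes the adjusted p by edgeR was 0.994, so they do not hold across all genes tested.

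Hspa5 in these enterocytes was at 557.7 and 477.7 CPM in Control and 733.0 and 1048.8 CPM in EC-Foxc-DKO, and Serp1 at 186.1 and 147.6 against 212.3 and 382.1 CPM. Xbp1 (129.0 and 111.7 against 132.3 and 156.2 CPM) and Syvn1 (23.2 and 17.4 against 25.4 and 31.5 CPM) showed smaller gaps. Ddit3 was the member that overlapped, at 28.6 and 18.6 against 30.0 and 26.1 CPM. Without EC-Foxc-DKO 2 all 7 differences named above stayed positive but fell to 0.29 to 0.62, with Creld2 at 0.62.

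Other measures also differed between the mice in bottom enterocytes. Marker lists of 13 of the 24 other classes were higher in both EC-Foxc-DKO mice and 0 were lower in both, including crypt cells (167 and 216 against 248 and 500 CPM), enteroendocrine cells (33.4 and 32.3 against 125 and 80.0 CPM) and plasma cells (34.2 and 22.3 against 40.7 and 34.5 CPM). The median cell had 39208 and 33155 UMIs in Control and 35434 and 23314 in EC-Foxc-DKO, with 8.30% and 8.78% against 8.04% and 7.45% mitochondrial UMIs. Their part in the members' differences was not tested.

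In macrophages 8 members were higher and 2 lower, with a median of 0.49. Both EC-Foxc-DKO mice lay above both Control mice for 7 members, against 16% of genes, and below them for 1, against 15.2%. The choice of members in these libraries limits these counts too. Creld2 was at 76.3 and 35.0 CPM in Control and 96.4 and 171.6 CPM in EC-Foxc-DKO, a difference of 1.17 (SE 0.46), and Pdia4 at 131.3 and 110.9 against 208.6 and 256.7 CPM, a difference of 0.91 (SE 0.32). These 2 are the members at an unadjusted p under 0.05, against 2.17% of genes, and their adjusted p by edgeR was 1.00. The member that was lower without overlap, named after its values were seen, was Ddit3, at 35.9 and 32.1 against 23.5 and 28.3 CPM (difference -0.45). In EC-Foxc-DKO 2 the macrophages also held 2464 CPM of the plasma list, against 73.7 to 96.3 CPM in the other 3 mice, and without that mouse Creld2 differed by 0.70. The part of this in the macrophage values was not tested.

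BECs, in which the deletion is directed, had 6 members with enough UMIs to be tested. Hspa5 was at 531.0 and 321.0 CPM in Control and 503.8 and 1393.4 CPM in EC-Foxc-DKO, a difference of 1.11 (SE 0.47, adjusted p by edgeR 0.999), and it was the only 1 of the 6 at an unadjusted p under 0.05, against 2.78% of genes. The groups overlapped, since EC-Foxc-DKO 1 lay between the Control mice, and without EC-Foxc-DKO 2 the difference was 0.26. Hsp90b1 had the same shape (732.7, 499.3, 596.7 and 1333.9 CPM for Control 1, Control 2, EC-Foxc-DKO 1 and EC-Foxc-DKO 2), and so had Manf (168.0, 129.3, 141.6 and 390.8 CPM). The CD8 T cell list in BECs was at 20.2 and 4.46 CPM in Control and 427 and 2676 CPM in EC-Foxc-DKO (3, 1, 8 and 8 of 8 markers detected), and its part in these values was not tested.

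Erythroid cells allowed a test of 4 members, all of them higher and 3 without overlap, against 22.4% of genes. Hsp90b1 was at 65.6 and 109.5 against 294.8 and 318.3 CPM, a difference of 1.56 (SE 0.57, adjusted p by edgeR 0.616), and was the 1 member at an unadjusted p under 0.05, against 6.16% of genes. Hspa5 differed by 1.34 (SE 0.87) and Manf by 1.29 (SE 0.82). Over the alternatives, the differences ran from 0.19 (without likely doublets) to 3.99 (without Control 1) for Hspa5, from 0.25 (mitochondrial limit at 20%) to 2.03 (no TMM scaling) for Hsp90b1 and from 0.89 to 1.80 for Manf. Erythroid cells held 106673 and 45648 UMIs in Control 1 and 2, with a median of 1085.5 UMIs per cell, so their Control levels rest on few UMIs. Marker lists of other classes were not summed in erythroid cells. Without likely doublets, Lyz2, C1qa and C1qb were among the leading genes of the erythroid cluster, and their part was not tested. Glia had 6 members tested, all higher and 3 without overlap, against 13.4% of genes.

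The remaining classes had smaller or mixed values. Crypt cells had 9 of 10 members higher with a median of 0.38, while the median over all genes was -0.0037. Only 2 members were higher without overlap, against 14.9% of genes. TMM-scaled Hspa5 was at 887 and 260 CPM in Control 1 and 2 and at 756 and 789 CPM in EC-Foxc-DKO 1 and 2. Control 1 thus lay above both EC-Foxc-DKO mice for this gene and Control 2 below them. Marker lists of 7 of the 24 other classes were also higher in both EC-Foxc-DKO crypt samples and 3 were lower in both, among the higher ones bottom enterocytes (10976 and 3301 against 11003 and 33547 CPM) and plasma cells (56.5 and 50.5 against 71.1 and 301 CPM), and their part was not tested. CD8 T cells ran from -0.07 to 0.43 over 8 members and follicular B cells from -0.48 to 0.43 over 8 members, 4 in each direction. In goblet cells, with Control 2 left out of the fit, Pdia4 differed by 1.83 (SE 1.46), Sdf2l1 by 1.64 (SE 1.32) and Hspa5 by 1.13 (SE 0.88), each with an adjusted p by edgeR of 1.00 and beside the Paneth and enterocyte markers given above. Over the alternatives these ran from 0.35 to 2.53, 0.72 to 2.51 and 0.27 to 1.65, with Hspa5 at 0.27 without EC-Foxc-DKO 2, where 1 mouse stood against 1 and no test was possible.

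In plasma cells 3 of 9 members tested were higher and 6 lower after TMM scaling, with a median of -0.09. Creld2 was the 1 member higher without overlap, against 24.6% of genes, and Pdia4 and Xbp1 were lower without overlap, against 22.2%. Xbp1 was the 1 member at an unadjusted p under 0.05, against 12.5% of genes, with a difference of -1.34 (SE 0.47, adjusted p by edgeR 0.298), which was -0.38 without Control 1 and -0.43 without TMM scaling. As CPM, given above, Pdia4 was instead higher in both EC-Foxc-DKO mice than in both Control mice. Its direction in plasma cells thus depended on the scaling. The crypt list, which holds proliferation genes, was at 65.2 and 65.1 CPM in Control and 961 and 1527 CPM in EC-Foxc-DKO plasma cells, and its part was not tested.

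**Figure D3:**
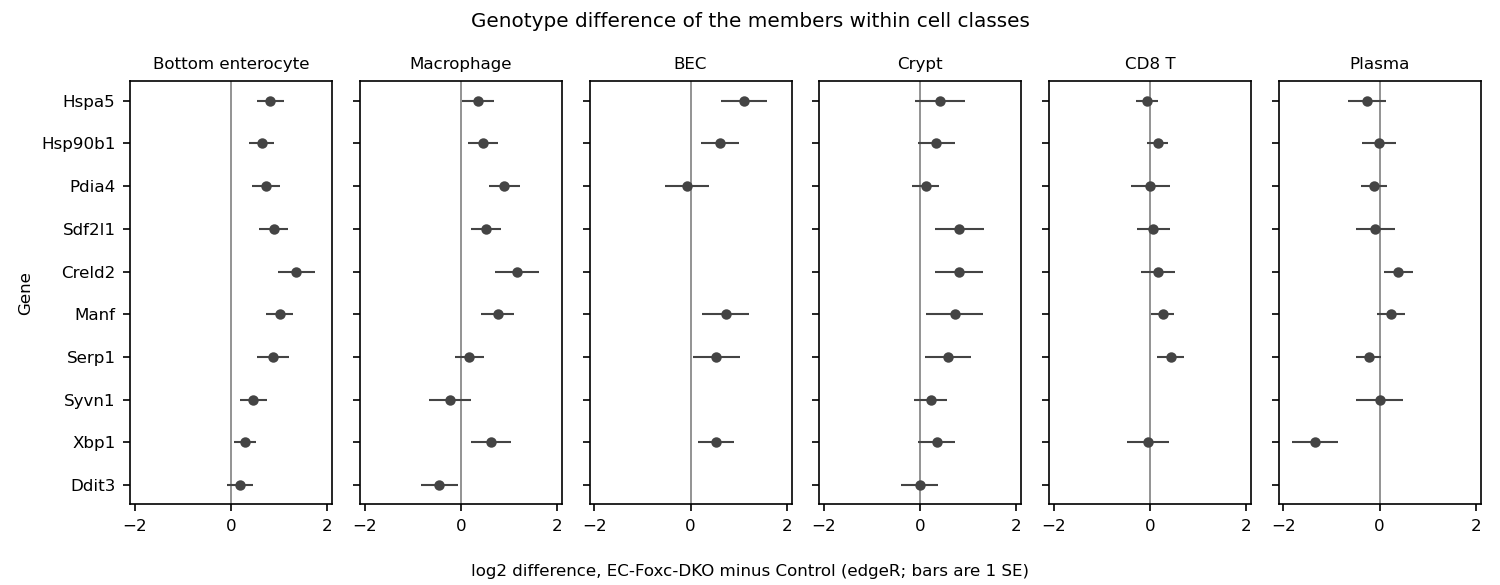
Each panel is a cell class, each row a gene and each point the edgeR log2 difference of EC-Foxc-DKO minus Control, with a bar of 1 SE on each side; a missing point is a gene with too few UMIs to test. All 10 points lie right of 0 in bottom enterocytes, whereas in plasma cells the points lie near 0 except Xbp1 at -1.34.

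Whether the genotype difference itself varied between classes was tested over the 8 classes in 1 fit with mouse and class as terms. By edgeR 0 members passed at an adjusted p under 0.05 and 0 at an unadjusted p under 0.05, against 15 of 9873 genes (0.152%) adjusted. The higher values in bottom enterocytes and the values near 0 in CD8 T cells were therefore not shown to differ.

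Of the wider list, 11 (erythroid cells) to 70 (bottom enterocytes) of the 75 genes had enough UMIs to be tested in a class, and 0 of those passed the adjusted threshold by edgeR in each of the 10 classes. In bottom enterocytes the median was 0.32, and 7 of 70 were at an unadjusted p under 0.05, against 2.95% of genes, all higher: 3 chaperones and folding genes, 2 of translocation and glycosylation, 1 of ERAD and 1 sensor or factor. The medians by role were 0.48 for chaperones and folding, 0.36 for ERAD, 0.27 for translocation and glycosylation, 0.19 for sensors and factors and 0.02 for the targets of PERK, ATF4 and CHOP, beside 0.01 over all genes. In plasma cells the median was -0.16, and 8 of 51 were at an unadjusted p under 0.05, against 12.5% of genes, 2 of them higher and 6 lower. The count was 3 of 62 in macrophages (2.17% of genes, median 0.29) and 3 of 11 in erythroid cells (6.16% of genes). In crypt cells it was 3 of 67, beside 229 of 9279 genes. CD8 T cells had 1 of 48 (99 of 4768 genes), glia 1 of 33 (38 of 1644) and goblet cells 1 of 57 (62 of 3809). BECs had 0 of 43 (97 of 3487 genes) and follicular B cells 0 of 42 (63 of 3381).

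Much of the spread between mice lay in 1 library. In the 11 classes with at least 5 cells in all 4 mice, EC-Foxc-DKO 2 had the highest CPM in 66 of the 110 pairs of a member and a class (60.0%), followed by EC-Foxc-DKO 1 with 21, Control 1 with 13 and Control 2 with 10. Over all 2914 genes with a mean of at least 50 CPM in these samples it was highest in 30.5% of pairs. The count was 8 of 11 classes for Manf and Serp1, 7 for Pdia4 and Sdf2l1, 6 for Hsp90b1, Syvn1 and Xbp1, 4 for Hspa5 and 3 for Ddit3. Creld2 was highest in this mouse in all 11 classes, as was 1 other gene of the 2914, Celf1. In some of these classes the Creld2 gap was small or rested on few UMIs.

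By class, Creld2 in Control 1, Control 2, EC-Foxc-DKO 1 and EC-Foxc-DKO 2 was at 72.2, 10.0, 47.8 and 214.6 CPM in glia. It was at 22.7, 97.1, 39.1 and 163.9 CPM in enteroendocrine cells and at 90.5, 23.3, 88.9 and 124.0 CPM in crypt cells. In BECs the values were 40.3, 49.0, 32.5 and 76.5 CPM. The first 3 mice had no fixed order among these classes. The gap was small in CD8 T cells (43.1, 53.9, 49.3 and 63.3 CPM), follicular B cells (7.2, 15.8, 29.5 and 30.5 CPM) and middle enterocytes (26.2, 20.5, 27.5 and 33.7 CPM). In erythroid cells Control 2 had 0 UMIs, which allowed up to 65.7 CPM, beside 18.7, 23.3 and 68.2 CPM. Over all genes, EC-Foxc-DKO 2 held 98234 UMIs in follicular B cells, 148317 in middle enterocytes and 43984 in erythroid cells. Its Creld2 levels in these classes therefore rest on few UMIs. With immunoglobulin and mitochondrial genes left out of the total, plasma cells were the exception, with EC-Foxc-DKO 1 highest at 1605.0 CPM.

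**Figure D4:**
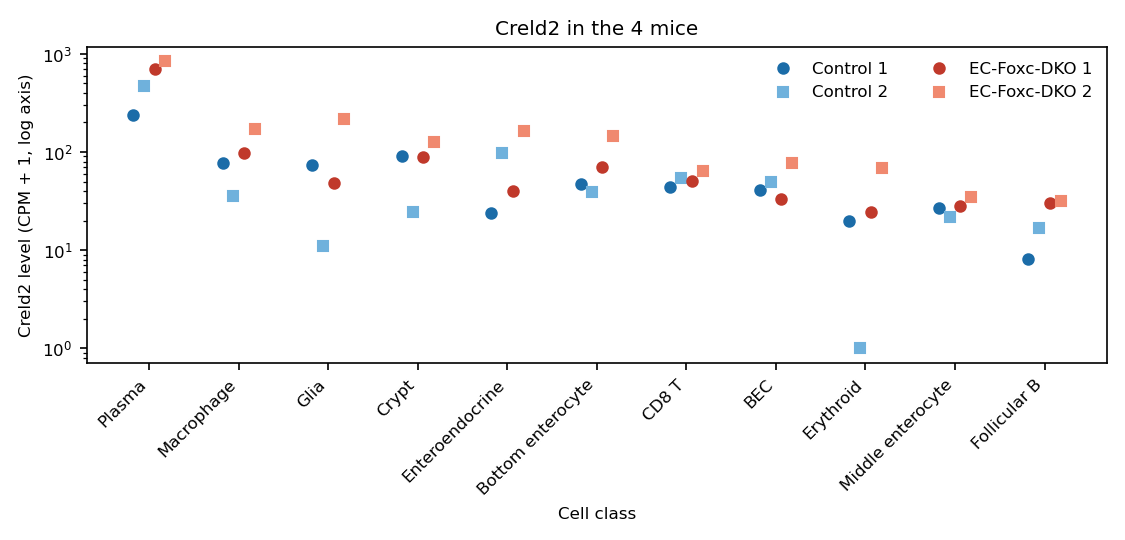
Each point is the Creld2 level of 1 mouse, as CPM + 1 on a log axis, in each of the 11 classes with at least 5 cells in all 4 mice; blue marks Control and red EC-Foxc-DKO. The light red squares, EC-Foxc-DKO 2, are the highest point in every class, from 837.6 CPM in plasma cells to 30.5 CPM in follicular B cells.

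Finally, the members were set against the share of mitochondrial UMIs, a sign of cell damage, over all 22679 barcodes, with levels per 1000000 non-mitochondrial UMIs. Ddit3 ranged over the 4 mice from 27.3 to 37.1 in barcodes with up to 10% mitochondrial UMIs, from 34.4 to 47.3 at 10 to 20%, from 68.2 to 123 at 20 to 50% and from 39.5 to 131 above 50%. Its ranges at up to 10% and at 20 to 50% did not overlap. Syvn1 showed the same direction (18.8 to 31.7, 21.8 to 39.5, 38.3 to 69.9 and 27.9 to 84.2). The chaperones ran the other way: Manf from 223 to 543, 128 to 371, 53.6 to 186 and 58.0 to 106, and Hspa5 from 492 to 920, 382 to 770, 242 to 557 and 260 to 549.

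The limit on mitochondrial UMIs therefore kept unequal parts of the members. Cells with up to 10% held 36.4% of the 7020 UMIs of Ddit3 and 41.2% of the 5756 of Syvn1, but 71.4% of those of Manf and 63.1% of those of Hspa5. The makeup of cell classes also differs between these bands. Within 46 pairs of a class and a mouse, after clustering with the limit at 20%, the cells at 10 to 20% were the higher ones in 31 pairs for Syvn1, 28 for Xbp1, 27 for Ddit3 and Serp1, 14 for Hspa5, Hsp90b1 and Sdf2l1, 13 for Pdia4, 11 for Creld2 and 10 for Manf. Inside classes, then, the 6 chaperones and folding factors were higher at 10 to 20% in fewer pairs (10 to 14 of 46) than the other 4 members (27 to 31).

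**Figure D5:**
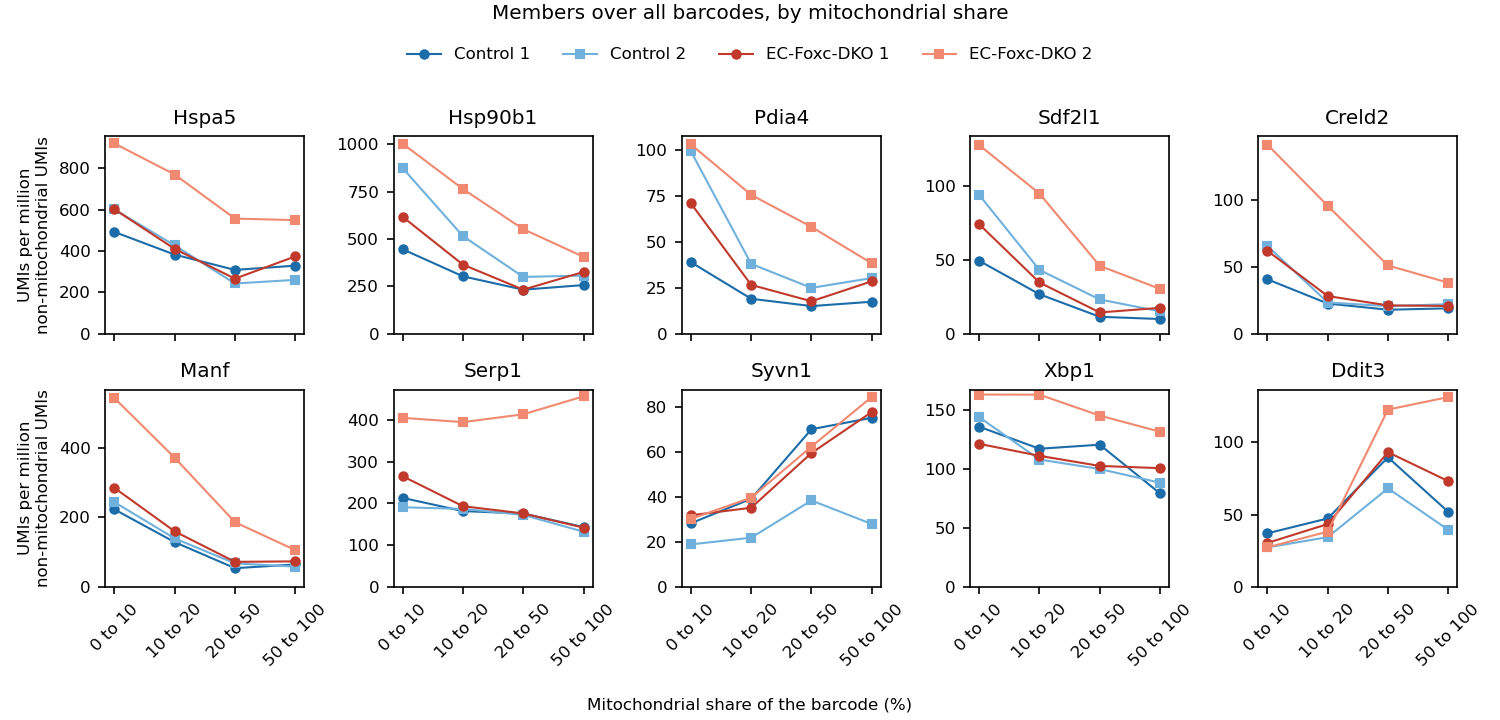
Each panel is a gene, with the mitochondrial share of the barcode in 4 bands on the horizontal axis and the UMIs per 1000000 non-mitochondrial UMIs of 1 mouse on the vertical axis; lines join the bands of a mouse. Manf and the other chaperones are highest at 0 to 10%, and Ddit3 is highest at 20 to 50% or above in each mouse.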

How the data were processed

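Expression in 4 jejunal libraries, 1 per mouse, was analysed from the count matrices that the authors deposited, which hold whole-number UMI counts per gene and barcode, not normalized, from 10x Genomics 3′ libraries. The submitters' processing notes name Cell Ranger 4.0.0 and mm10, while the methods give another Cell Ranger version; empty droplets had been removed. A joined count table that the authors deposited only defined the genes of the mitochondrial share.

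Cells with up to 10% mitochondrial UMIs were kept (5615), genes under a mean of 0.001 were dropped, and counts were log-normalized to 10000 per cell. Variable genes (2738), 15 principal components, 15 neighbors and Leiden clustering at resolution 0.5 (scanpy 1.11.5, leidenalg 0.10.2, Python 3.11.15) gave 22 clusters, some clustered again. A name needed at least 3 markers at 2-fold in 10% of cells, by a rule whose details were set after the clusters were seen, and 246 cells stayed unnamed. Names rebuilt from markers may differ from those of the study. Doublets were kept, since the methods state no removal.

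UMIs were summed per mouse and class. Genotypes were compared with edgeR 4.0.16 in R 4.3.3 (filterByExpr, TMM, glmQLFit, glmQLFTest), p-values being adjusted by Benjamini-Hochberg over all genes tested in a class (threshold 0.05). A mouse with under 5 cells of a class was left out, so goblet cells had 1 Control mouse, whose spread was taken from the EC-Foxc-DKO mice. The difference between classes was an F-test of genotype by class with mouse as a term. The sums were tested in place of single cells, because cells of 1 mouse are not replicates. DESeq2 1.42.0, no TMM, no filter, each mouse left out, a replicate block, a mitochondrial limit of 20%, removal of likely doublets and clustering without ER genes were tried. On simulated counts with known changes, the fit recovered 84.7% of log2 changes of 2 and 13.4% of 1 in plasma cells (1181 genes), and 83.9% and 23.2% in bottom enterocytes (9621 genes). The same number of genes was changed in each, which is a larger share of the plasma genes. Recovery depends on that share, so these rates cannot be compared between the classes or carried over to the real data.

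Intervals and the limits of a count of 0 (3 counts) cover counting error only. Members and lists were chosen with earlier results of these data known. A genotype difference of a member was named where its unadjusted p was under 0.05 or its log2 size at least 1, 2 genes per role of the wider list were named by their ratio in plasma, goblet or stromal cells to the median class, and the 10 genes most like the mean profile and the nearest gene of each member were named by Pearson r. Both searches by Pearson r took only genes with a mean of at least 50 CPM over classes.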

Additional observations from a re-analysis of the deposited data

How the results depend on the processing

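Beside the edgeR fits given above, 0 members passed the adjusted threshold in each of the 10 classes under DESeq2, without TMM scaling, with the mitochondrial limit at 20%, with clustering that left out the ER genes and without likely doublets. Without the filter on low counts 2 members passed in bottom enterocytes, Creld2 (1.36, adjusted p by edgeR 0.000147) and Manf (1.01, adjusted p 0.0153). That setting called 3 to 147 genes in each of the 10 classes, and the share in bottom enterocytes is not given here. Leaving out 1 mouse leaves an arm with 1 mouse that is assumed to vary like the others. Hspa5 in BECs was then at 1.66 without EC-Foxc-DKO 1, and Creld2 in macrophages at 1.91 without Control 1. The cause of these larger differences was not tested. With the replicate number as a block, 0 members passed, beside 0 to 6 genes in 9 classes. The labels do not say what the replicate number stands for. In macrophages the median mitochondrial share was 2.58% and 2.96% in replicate 1 of Control and EC-Foxc-DKO and 6.21% in replicate 2 of both. It was also higher in replicate 2 of both genotypes in glia, BECs, plasma, goblet and stromal cells, but not in bottom enterocytes or crypt cells. A shared batch was not tested. Deviations of same-numbered mice had correlations of -0.32 to 0.09. In bottom enterocytes, crypt cells and macrophages these were -0.19, -0.32 and -0.17. A block that crosses the numbers was added after seeing the data and called 0 to 70 genes over these 3 classes. It gave 1 member in bottom enterocytes (Creld2 at 1.38, adjusted p by edgeR 0.0279). The share of genes called in bottom enterocytes is not given here, so nothing is read from this call.

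Over classes, the number of genes called was 0 to 10 by the fit given above, 0 to 8 by DESeq2, 0 to 46 without TMM scaling, 3 to 147 without the filter, 0 to 242 over 36 fits that left out 1 mouse and 0 to 29 without likely doublets. Of 179 alternative values of the named member differences, 174 stayed on the same side of the threshold with the same direction. The other 5 newly passed it, some of them in fits that left out 1 mouse. None of the named differences had passed in the fit given above, so the same side of the threshold means only that they stayed uncalled. Counts of members higher without overlap were equal or within 1.5-fold in 38 alternatives and moved further in 19. The number of members highest in plasma cells ran from 4 (without EC-Foxc-DKO 1) to 9. Depth limits the low genes most: Syvn1 in stromal cells rests on 2 and 15 UMIs, and 5 plasma cells of Control 1 set its values.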

Other observations

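Some of the cells outside the named classes also held high levels of the members. A cluster of 21 cells led by Jchain, Igha and Igkc together with the T cell genes Cd160, Gzma and Gzmb had 1844 CPM of Hsp90b1, 795 CPM of Hspa5, 308 CPM of Pdia4, 292 CPM of Creld2 and 331 CPM of Xbp1 over all mice. A cluster of 9 cells led by Slpi, Igfbp6, Msln and Upk3b had 1949 CPM of Hspa5, 1610 CPM of Hsp90b1, 742 CPM of Manf, 317 CPM each of Pdia4 and Sdf2l1 and 188 CPM of Creld2. The larger unnamed clusters held less Hspa5 and Hsp90b1, at 193 and 175 CPM in 153 cells and at 386 and 489 CPM in 63 cells. All these clusters stayed unnamed, and their values are sums over mice with no error.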
